A study of Mus musculus with 6 samples.

Results

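The genes described here encode the proteins of the cytoplasmic ribosome, and were followed in C2C12 cells, an immortalised mouse myoblast line of C3H origin, with and without knockdown of Kap1. They were chosen by symbol (Rps or Rpl followed by a number, together with Rplp0, Rplp1, Rplp2 and Rpsa, and without names marking pseudogenes or the Rps6k kinases) and by a mean level of at least 10 CPM (the usual depth-scaled count, relative to all counts on genes) over the 6 libraries. Of 37991 genes in the count files, 87 matched by symbol and 83 reached that level, 35 of them named for the small subunit and 48 for the large subunit. The annotation (GENCODE, GRCm38) gives 79 of the 83 as protein coding and 4 (Rps3a2, Rps3a3, Rpl6l and Rps12l1) as processed pseudogenes. Since the members were selected on this measured level, the level is given as a description only. Just above the threshold stood Rps12l1 (mean 14.1 CPM), Rpl29 (66.8 CPM) and Rpl6l (69.6 CPM). Rpl3l (0.062 CPM), Rps4l (0.043 CPM), Rpl39l (0 CPM) and Rpl10l (0 CPM) were the 4 matching symbols below it. All 83 members passed the filter on low counts and were tested.

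Ribosomal proteins assemble with ribosomal RNA into a small subunit, which decodes the messenger RNA, and a large subunit, which joins amino acids. Their genes are transcribed in a coordinated way in growing cells, and their messenger RNAs usually begin with a short run of pyrimidines, the terminal oligopyrimidine tract, through which mTOR signalling controls their translation. Myoblasts that leave the cell cycle and form myotubes are known to reduce the making of new ribosomes.

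Control cells (shCtrl) were transduced with a lentivirus carrying a short hairpin against luciferase, and knockdown cells (shKap1) with one against Kap1, the corepressor also called TRIM28, so every group carried a lentiviral hairpin. Proliferating myoblasts (MB) grew in 10% fetal calf serum, and differentiating cells (MT) had spent 48 hours in 2% horse serum with insulin, transferrin and selenium. There were 2 MB libraries of each genotype and 1 MT library of each. Polyadenylated cytoplasmic RNA was sequenced, and nothing in the labels tells whether replicates were grown separately. The p-values therefore speak only of the spread among the libraries at hand, which may be technical.

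The libraries held 36247530 to 49839994 counts on genes. Trim28, the targeted gene, stood at 596 and 428 CPM in MB shCtrl, 150 and 102 in MB shKap1, 394 in MT shCtrl and 114 in MT shKap1. The libraries fell into 2 batches, told apart only by how their count files are named, with replicate 1 of both MB groups and both MT libraries in batch 1 and replicate 2 in batch 2. The 8 muscle markers (Myog, Myod1, Des, Acta1, Ckm, Tnnt3, Myh3 and Mymk) summed to 372 and 322 CPM in the replicate 1 MB libraries and to 788 and 829 CPM in replicate 2. The same sum was 7725 CPM in MT shCtrl but 690 CPM in MT shKap1, below both replicate 2 myoblast libraries. Des made up most of the sum in MT shKap1 (552 CPM, against 641 and 741 in replicate 2). Acta1, Ckm, Tnnt3 and Mymk were higher there than in either replicate 2 library, Mymk only just (9.08 against 9.05 and 5.61). They were far below MT shCtrl (Ckm 4.75 against 2.46 and 2.79, and 195 in MT shCtrl). Myog (30.2 against 32.9 and 14.1), Myod1 (27.5 against 31.0 and 20.4) and Myh3 (14.1 against 29.9 and 11.2) lay between the replicate 2 libraries. With a term for batch, edgeR called 8 of the 8 higher in differentiation of control cells and 6 in that of knockdown cells (22.3% and 16.6% of tested genes), and 6 lower in MT shKap1 than in MT shCtrl (11.2%). MB shKap1 replicate 2 stood apart in another way. For 15 members, over 10% of reads lay on copies named as pseudogenes. Among these, MB shKap1 replicate 2 had the highest share on the copies of all 6 in 12 and the lowest in the other 3. The 5 markers of dividing cells (Mki67, Top2a, Ccnb1, Cdk1 and Ccna2) summed to 1633 to 2253 CPM in MB, 800.5 in MT shCtrl and 1031 in MT shKap1. The 7 fibroblast and smooth muscle markers (Col1a1, Col3a1, Dcn, Pdgfra, Acta2, Tagln and Cnn1) were present in every library, at 7695 and 8050 CPM in MB shCtrl, 13077 and 10962 in MB shKap1, 22245 in MT shCtrl and 16744 in MT shKap1. Of the 4 adipocyte markers, Adipoq was at 0 in all 6 libraries and Plin1 in 5 of them, and the list summed to at most 29.4 CPM. In bulk RNA, fewer cells of a type and less RNA per cell cannot be told apart.

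The starts of these genes are shown first, because members differed in how far they fell in differentiation and the pyrimidine run is the feature they are best known to share. RefSeq promoter windows (GRCm38.p6) were found for 59 of the 83 members. Each line below covers 20 bases before the annotated start and 20 from it, in the direction of transcription, with the longest run of C and T in capitals. Rpl4, Rpl7a and Rps2 had the largest falls in control cells, Rpsa also fell, Rps27 and Rpl31 were among those that changed least, and Rpl22l1 was the member whose knockdown effect differed between stages.
Rpl4: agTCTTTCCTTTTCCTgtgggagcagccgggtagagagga
Rpl7a: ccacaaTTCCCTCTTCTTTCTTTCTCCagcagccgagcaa
Rps2: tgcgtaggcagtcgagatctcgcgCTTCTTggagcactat
Rpsa: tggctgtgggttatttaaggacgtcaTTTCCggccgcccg
Rps27: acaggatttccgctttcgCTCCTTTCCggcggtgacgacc
Rpl31: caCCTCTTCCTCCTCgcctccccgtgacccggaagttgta
Rpl22l1: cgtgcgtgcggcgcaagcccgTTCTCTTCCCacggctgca
These windows lie at chr9:64173367-64173406 (plus strand), chr2:26910787-26910826 (plus), chr17:24720043-24720082 (plus), chr9:120127746-120127785 (plus), chr3:90213629-90213668 (minus), chr1:39367831-39367870 (plus) and chr3:28805488-28805527 (plus), in that order. The run is 14 bases long in Rpl4, 21 in Rpl7a, 6 in Rps2, 5 in Rpsa, 9 in Rps27, 13 in Rpl31 and 10 in Rpl22l1, so neither the genes that fell nor those that did not share a run of one length. In Rpl4 and Rpl31 the run begins at -18 and lies wholly before the RefSeq start used here. The GENCODE genes start further upstream, inside these runs, at chr9:64173375 for Rpl4 and chr1:39367842 for Rpl31. Whether the run is part of the transcript thus depends on the annotation. A run of at least 8 on the sense strand lay in this window in 30 of the 59 members (50.8%), against 18.4% of 27025 genes in the same table. Runs before the start and runs after it were counted alike. The annotated start decides where the window falls, and the start used in these cells was not measured.

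In the full windows, 250 bases before to 50 after the start, searched on both strands, CCGGAAG (the core of the site of ETS factors such as GABPA) was found in 42.4% of the 59 members and 9.93% of all genes, and GGGCGG (the GC box bound by SP1) in 64.4% and 38.2%. AAGATGG (the core of the YY1 site) was found in 16.9% of members and 7.28% of genes, CACGTG (the E-box bound by MYC) in 10.2% and 8.09%, and TATAAA in 11.9% and 15.7%. The 250 bases before the start are printed for Rpl22l1 (chr3:28805258-28805507, plus strand), with 2 overlapping TATAAA matches, 1 on each strand, and 1 GGGCGG match on the opposite strand in capitals, and for Rps27 (chr3:90213649-90213898, minus strand), with 1 AAGATGG match in capitals.
Rpl22l1: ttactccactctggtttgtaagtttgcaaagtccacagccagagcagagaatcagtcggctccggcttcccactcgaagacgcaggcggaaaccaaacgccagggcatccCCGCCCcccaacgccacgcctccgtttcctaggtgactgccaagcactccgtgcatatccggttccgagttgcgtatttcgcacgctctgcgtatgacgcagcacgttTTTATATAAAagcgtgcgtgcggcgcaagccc
Rps27: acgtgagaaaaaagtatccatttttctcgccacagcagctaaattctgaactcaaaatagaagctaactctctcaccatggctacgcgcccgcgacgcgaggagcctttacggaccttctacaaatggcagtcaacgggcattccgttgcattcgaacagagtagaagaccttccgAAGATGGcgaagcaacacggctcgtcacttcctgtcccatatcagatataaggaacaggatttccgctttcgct
A match is a run of letters and not a site shown to be bound.

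Across the libraries, the 83 genes took 5.58% and 5.26% of the counts on genes in MB shCtrl, 5.94% and 5.03% in MB shKap1, 4.18% in MT shCtrl and 5.25% in MT shKap1. The 95% Wilson intervals, which cover counting error only, were under 0.02 percentage points wide, as in MT shCtrl (4.17% to 4.18%). By this share MT shCtrl was the lowest library. MT shKap1 fell inside the range of the 4 myoblast libraries, but below both of those in its own batch (5.58% and 5.94%). The place of MT shKap1 depended on the scaling. After edgeR's correction for library composition (TMM), the members summed to 49105 CPM in MT shKap1, below all 4 myoblast libraries (50942 to 58487). MT shCtrl was again the lowest, at 42991 CPM. The 2 MB shKap1 libraries were the highest and the lowest of the myoblasts, so their spread enclosed both controls. Both subunits followed this order, the small subunit genes at 1.70% and the large subunit genes at 2.48% in MT shCtrl against 2.05% to 2.40% and 2.98% to 3.54% in MB.

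**Figure D1:**
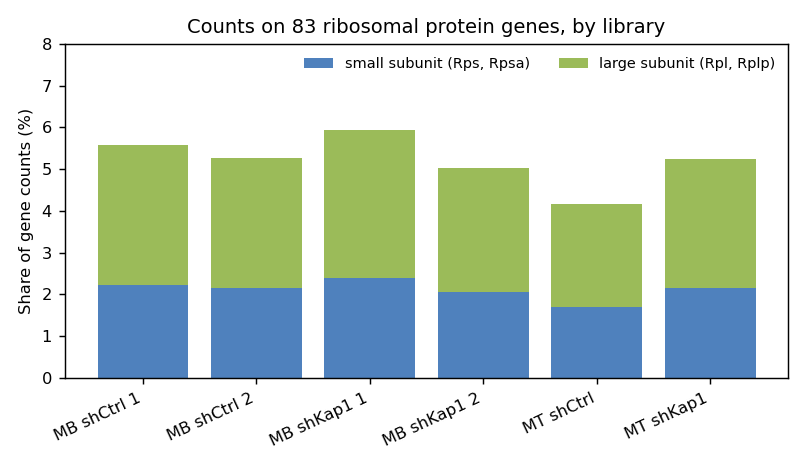
Share of all gene counts (percent, vertical axis) taken by the ribosomal protein genes in each of the 6 libraries, stacked by subunit. The MT shCtrl bar is the lowest at 4.18%, and the MT shKap1 bar (5.25%) lies within the myoblast range of 5.03% to 5.94%.

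Per length of transcript, as counts per base of transcript scaled to the same total in each library, the highest members were Rpl41 (mean 4591), Rplp1 (4074) and Rps12 (4042), and the lowest were Rps12l1 (67.7), Rpl7l1 (114) and Rpl6l (153). Rpl41 encodes the smallest ribosomal protein, and Rplp1 an acidic protein of the stalk that recruits elongation factors. These levels depend on the transcript chosen for each gene, and the long records of Rpl7l1 (2606 bases) and some others lower them.

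The first comparison asks what happened to these genes when control cells differentiated. In the fit with a term for batch, 46 of the 83 fell (edgeR quasi-likelihood test, adjusted p under 0.05) and 0 rose, against 22.6% of all 16472 tested genes called lower and 22.3% called higher. Among the 9740 tested genes with a mean of at least 10 CPM, the level that chose the members, 32% were called lower and 20.9% higher. The median log2 change was -0.41 over the members and -0.01 over all tested genes, and 82 of 83 members lay below 0, against 50.6% of tested genes and 58.5% of those at 10 CPM or more. The fall was shared by both subunits, with 20 of 35 small subunit genes (median -0.42) and 26 of 48 large subunit genes (median -0.40) called. In the fit without a batch term, edgeR called 0 members and 0 of all tested genes (0%) in each of the 5 contrasts. At an unadjusted p under 0.05 it had 18 members lower (11.9% of tested genes, 17.7% at 10 CPM or more) and 0 higher (13.4%), and DESeq2 without a batch term called 9 lower (6.63%, 10.3% at 10 CPM or more) and 0 higher (7.84%). There is a single MT shCtrl library. The values without a batch term assume that it varies as the myoblast libraries do. Those with a batch term assume the smaller spread left once the difference between replicates 2 and 1 is removed. The biological coefficient of variation was 9.74% with the term and 32.9% without it. The removed difference took in muscle markers (Myog 1.26 and 32.9 CPM in MB shCtrl), and whether it is technical was not tested.

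Rpl4, whose protein lines the exit tunnel of the large subunit, fell most. It stood at 1758 and 1654 TMM-scaled CPM (CPM after edgeR's correction for library composition) in MB shCtrl, 1634 and 1545 in MB shKap1, 994 in MT shCtrl and 1220 in MT shKap1. Both MT libraries were below all 4 myoblast libraries, and the log2 change in control cells was -0.82 (SE 0.14, edgeR adjusted p = 0.000881). Rps2, a small subunit protein near the messenger RNA entry channel, was at 750 and 943 in MB shCtrl, 743 and 971 in MB shKap1, 434 in MT shCtrl and 493 in MT shKap1. Its replicate 2 libraries were higher than replicate 1 in both genotypes, and the MT libraries were well below either, with a change of -0.78 (SE 0.13, edgeR adjusted p = 0.00102). Reads of Rps2 are uncertain, because 42.4% of the counts on Rps2 and its copies named as pseudogenes lay on the copies.

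Rpl7a, a large subunit protein whose gene also hosts small nucleolar RNAs, stood at 1263 and 1013 in MB shCtrl, 1258 and 932 in MB shKap1, 750 in MT shCtrl and 888 in MT shKap1. The MT shCtrl library was the lowest of the 6, and the change was -0.78. Rpl12, a protein of the stalk base, was at 1170 and 1080 in MB shCtrl, 1131 and 1056 in MB shKap1, 698 in MT shCtrl and 842 in MT shKap1, with no overlap between MT and MB libraries and a change of -0.74. Rpl3, a core protein of the peptidyl transferase centre, changed by -0.70 and had 1440 and 1309 in MB shCtrl, 1332 and 1304 in MB shKap1, 872 in MT shCtrl and 1162 in MT shKap1. Reads of Rpl3 are uncertain too, since 21.7% of counts on Rpl3 and its copies lay on the copies. Rpsa, the small subunit protein also known as the laminin receptor, changed by -0.65 and Rpl29 by -0.73 (edgeR adjusted p = 0.00331 and 0.00529).

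Rplp0, the stalk protein that anchors Rplp1 and Rplp2, was the most abundant member by CPM. Its levels were 2763 and 2156 in MB shCtrl, 2798 and 2028 in MB shKap1, 1836 in MT shCtrl and 2085 in MT shKap1. The MT shCtrl library was the lowest, but MT shKap1 stood between the replicates of MB shKap1, and the fall in control cells was -0.62 (SE 0.14, edgeR adjusted p = 0.00557). Rplp1 (-0.42, adjusted p = 0.0342) and Rplp2 (-0.36, adjusted p = 0.0444) fell less by the same edgeR test, as did Rps6 (-0.55, adjusted p = 0.00938), the subunit protein phosphorylated by S6 kinases. Rps27a, which is made as a fusion with ubiquitin, had a change of -0.36 that did not pass (edgeR adjusted p = 0.0708).

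Across all 46 called genes the changes ran from -0.82 to -0.36. MT shCtrl was below both MB shCtrl libraries in each of the 46, which the call from these same libraries makes likely. Counting all members, MT shCtrl was below both MB shCtrl libraries in 78 of 83 (40.6% of tested genes, 49.8% at 10 CPM or more) and the lowest of the 6 libraries in 58 (24.5% and 29.8%). The other end of the order held Rps27, the one member above 0 in the fit with a batch term, a small subunit protein with a zinc finger. It stood at 326 and 295 in MB shCtrl, 376 and 267 in MB shKap1, 353 in MT shCtrl and 370 in MT shKap1, with the MT values inside the myoblast range and a change of 0.03 (SE 0.15, edgeR adjusted p = 0.905), which became -0.00144 when scaled by library size. Rpl31 (-0.10) and Rpl38 (-0.15) were also near 0 and did not pass.

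**Figure D2:**
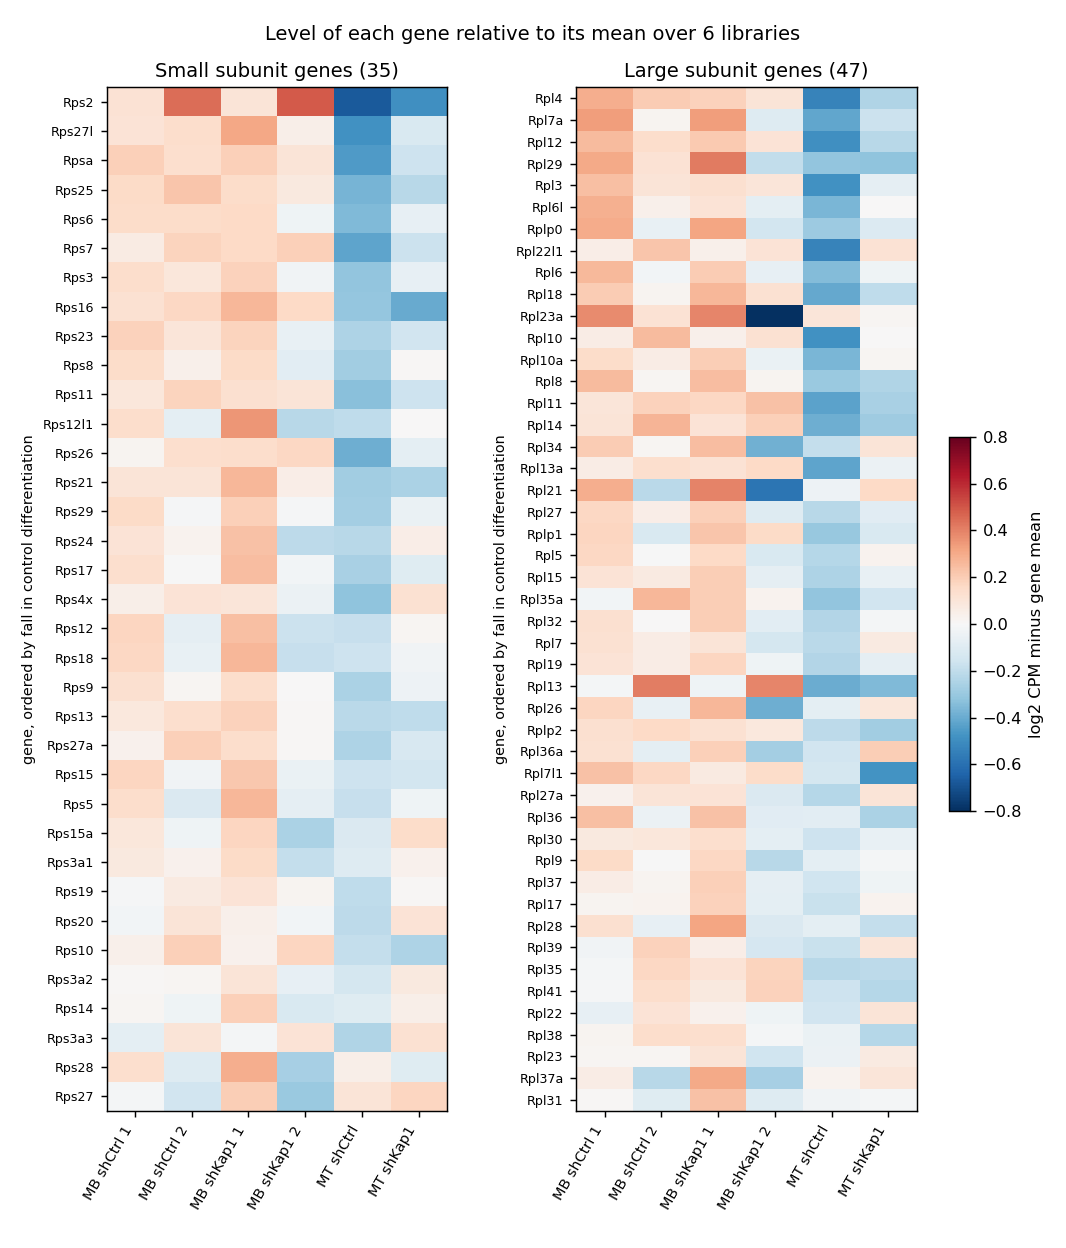
Heat map of log2 TMM-scaled CPM minus the gene's mean over the 6 libraries, with 82 of the 83 genes in rows by subunit and libraries in columns; the colour scale stops at 0.8 either way. The MT shCtrl column is the bluest, and replicate 1 of MB shKap1 is above the gene mean for most genes.

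Measured against each myoblast replicate on its own, the median change of the 83 genes in control cells was -0.36 with replicate 1 of the same batch (82 below 0) and -0.30 with replicate 2 (78 below 0). Counts over all tested genes are not set beside these for either replicate. The muscle marker sums of those replicates differed, as given above. Other quantities moved with the MT libraries. Reads outside any gene were 8.07% and 7.89% in the MT libraries and 5.18% to 6.67% in MB, and the 10 most abundant genes took 7.31% and 6.54% of counts against 4.93% to 5.70%. With those 10 genes left out of the denominator, the share of counts on the members was 4.51% in MT shCtrl and 5.33% to 6.28% in MB. The part of the muscle, cell cycle and fibroblast markers in the fall was not tested.

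The genes that fell were found with and without the pyrimidine run. Against 22.6% of tested genes called lower, or 32% at 10 CPM or more, of the 30 members with a pyrimidine run of at least 8 near the start 20 were called lower in control cells (median -0.40), and of the 29 with an entry and no such run, 15 were (median -0.42). With CCGGAAG in the promoter 15 of 25 were called (median -0.39), and without it 20 of 34 (median -0.41). These counts are a description of the entries in the table.

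The second comparison follows differentiation in knockdown cells. With the batch term, 14 of 83 members were called lower and 0 higher, against 16.5% of tested genes lower and 16.6% higher. Among genes at 10 CPM or more 24.3% were called lower and 16.9% higher, so the members' share called lower, also 16.9%, was near the first background and below the second. The member median was -0.21 and that of all tested genes 0.02, with 70 of 83 below 0 (49% of tested genes, 57.3% at 10 CPM or more). The median depended on the myoblast library used. It was -0.25 against replicate 1 of the same batch, with 76 below 0, and -0.03 against replicate 2, with 43 below 0. For these counts by replicate, those over all tested genes are not given. Without a batch term edgeR called 0 members, with 4 lower (7.81% of tested genes, 11.8% at 10 CPM or more) and 0 higher (7.44%) at an unadjusted p under 0.05 and a median of -0.14, and DESeq2 called 1 lower (2.94%, 4.64% at 10 CPM or more) and 0 higher (2.17%). MT shKap1 was below both MB shKap1 libraries in 43 members (51.8%), against 36.5% of tested genes and 46.7% of those at 10 CPM or more.

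Of the 14 called in knockdown cells, 11 were also called in control cells, which is 78.6% of the knockdown list and 23.9% of the control list. Both contrasts use the same batch estimate. The same overlap was not counted over all tested genes, so whether it is particular to these genes is not known. The 3 called in knockdown cells alone were Rpl7l1, Rpl28 and Rpl36, and the test of the difference between genotypes did not pass for any of them (interaction of -0.25, -0.18 and -0.14, edgeR adjusted p = 0.404, 0.588 and 0.655). The strongest falls were those of Rps16 (-0.64, SE 0.13), Rpl29 (-0.63, SE 0.16), Rps2 (-0.61, SE 0.13) and Rpl7l1 (-0.59, SE 0.13), with edgeR adjusted p of 0.00529, 0.0141, 0.00663 and 0.0066. Rps16, a small subunit protein that contacts the transfer RNA, had 542 and 559 in MB shCtrl, 599 and 556 in MB shKap1, 401 in MT shCtrl and 376 in MT shKap1. Both MT libraries were below all the myoblast libraries, and MT shKap1 was the lowest. Among the members nearest to or above 0 were Rps3a3 (0.15), Rpl39 (0.14) and Rpl22 (0.12), none of which passed.

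**Figure D3:**
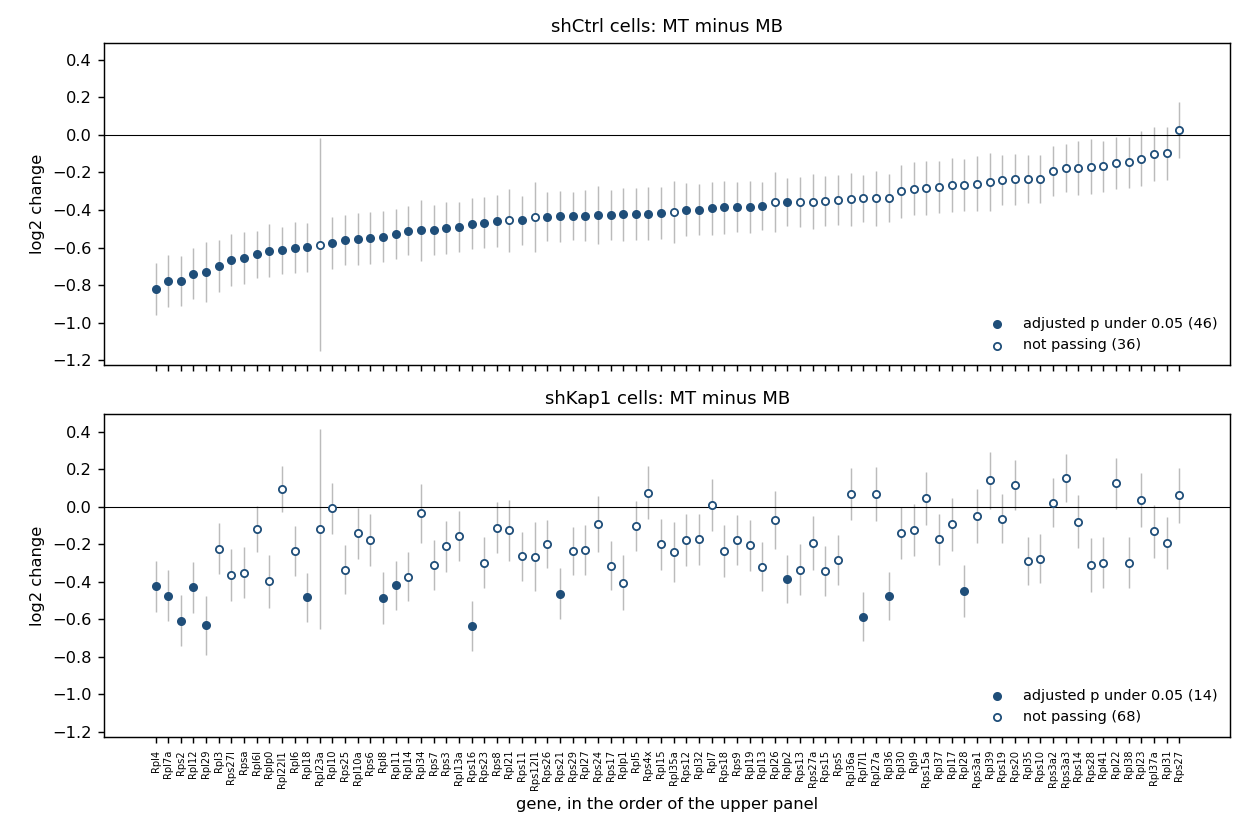
Log2 change from MB to MT for 82 of the 83 genes, with its standard error, in shCtrl cells (upper panel) and shKap1 cells (lower panel), in the fit with a batch term; filled points passed an adjusted p of 0.05. In shCtrl cells 46 points are filled and 81 lie below 0, and in shKap1 cells 14 are filled and 69 lie below 0.

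The third comparison asks how knockdown cells differed from control cells after 48 hours of differentiation, with 1 library on each side. With the batch term 2 members were higher (9.09% of tested genes, 10.6% at 10 CPM or more) and 0 lower (11.2% and 12.5%). With library size scaling in place of TMM, 12 members (14.5%) were higher, against 14.1% of tested genes and 18% of those at 10 CPM or more, and 0 lower (8.41% and 8.73%). The median log2 difference was 0.18, against 0.02 for all tested genes, and MT shKap1 was above MT shCtrl in 72 of 83 members (51.7% of tested genes by level, 51.8% by fitted change, 50.7% at 10 CPM or more by either). Scaling by library size raised the member median to 0.32 and the median of all tested genes to 0.15. It gave 79 members above 0. By CPM over the gene total, MT shKap1 was above MT shCtrl in 62.6% of tested genes and 65.1% at 10 CPM or more. With DESeq2 size factors in edgeR the medians of members and of all tested genes were 0.14 and -0.02, with 65 members above 0. The share of tested genes above 0 was not counted with those factors. The direction of the member median was thus the same under each of these scalings. Without a batch term edgeR called 0 members, with 1 higher and 0 lower at an unadjusted p under 0.05 (3.43% and 4.97% of tested genes), and DESeq2 called 0 either way (0.364% higher and 1.87% lower).

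The genes that rose were Rpl22l1 and Rpl10. Rpl22l1 encodes a paralog of RPL22 and can take its place in the large subunit. It stood at 113 and 127 in MB shCtrl, 112 and 117 in MB shKap1, 75.1 in MT shCtrl and 118 in MT shKap1. The 5 libraries other than MT shCtrl lay close together, and MT shCtrl was far below them. MT shKap1 was higher than MT shCtrl by 0.65 (SE 0.13, edgeR adjusted p = 0.00718, with a batch term). The annotation (GRCm38) places the gene (ENSMUSG00000039221) at chr3:28805436-28807424 on the plus strand.

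Rpl10, a large subunit protein near the site where the subunits join, had 908 and 1039 in MB shCtrl, 897 and 949 in MB shKap1, 621 in MT shCtrl and 874 in MT shKap1. MT shCtrl was again the one library below the rest, and the difference was 0.49 (SE 0.14, edgeR adjusted p = 0.0367). It did not pass when DESeq2 size factors replaced TMM. Its reads are uncertain, since 20.4% of the counts on Rpl10 and its copies lay on the copies. Rps4x (0.44), Rpl3 (0.41), Rpl6l (0.37) and Rps27l (0.36) differed in the same direction and missed the threshold (edgeR adjusted p = 0.0659, 0.0717, 0.0755 and 0.115). Among members lower in MT shKap1, Rpl7l1 (-0.34), Rpl38 (-0.17) and Rpl36 (-0.17) had the smallest p, and none passed (edgeR adjusted p = 0.11, 0.452 and 0.429).

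**Figure D4:**
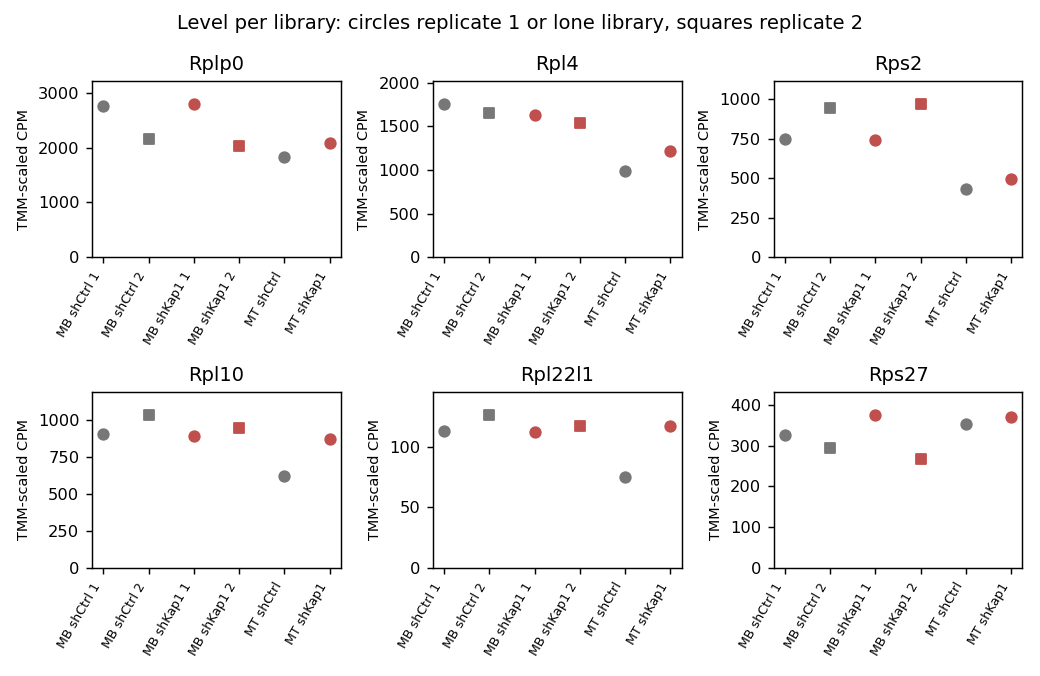
TMM-scaled CPM per library (vertical axes start at 0) of 6 members, with shCtrl libraries in grey, shKap1 libraries in red, replicate 1 or lone libraries as circles and replicate 2 as squares. For Rpl22l1 and Rpl10 MT shCtrl is the one low library, for Rpl4 and Rps2 both MT libraries are below the myoblasts, and for Rps27 the MT values are inside the myoblast range.

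In proliferating myoblasts, knockdown gave no call among the members. With the batch term 0 of 83 were called higher (2.5% of tested genes, 2.34% at 10 CPM or more) and 0 lower (1.34% and 1.67%), the fit without it called 0 with 0 at an unadjusted p under 0.05 (2.03% of tested genes higher and 0.722% lower), and DESeq2 called 0 (0.237% and 0.0789%). In all, 52 members lay below 0 (51.5% of tested genes, 56.8% at 10 CPM or more). The median was -0.02 with TMM scaling and 0.01 with library size or upper quartile scaling. The replicate pairs went opposite ways, with a median of 0.07 and 63 members above 0 in replicate 1, and -0.10 and 14 above 0 in replicate 2. Counts over all tested genes are not set beside these pairs, so whether the shifts are particular to the members is not shown. Both shKap1 libraries were above both controls in 2 members (13.5% of tested genes, 10.8% at 10 CPM or more) and below both in 4 (13.1% and 14.9%). By CPM over the gene total, without TMM, the balance turned, with 6 above (15.6% and 13.4%) and 0 below (11% and 11.9%). Among the smallest p each way were those of Rplp1 (0.16) and Rpl31 (0.11), and of Rpl6l (-0.15), Rpl34 (-0.18) and Rpl7 (-0.11), with edgeR adjusted p from 0.459 to 0.665.

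Spread between myoblast replicates was common to many members. MB shKap1 replicate 1 was the highest of the 6 libraries in 46 members (10.4% of tested genes, 10.3% at 10 CPM or more), and replicate 2 was below replicate 1 in both genotypes in 50 (38.1% and 38.2%). Rpl23a, chosen after its values were seen, had 175 and 146 in MB shCtrl, 176 and 67.2 in MB shKap1, 144 in MT shCtrl and 136 in MT shKap1. Its MB shKap1 replicate 2 library stood apart, and in that library 49.2% of counts on Rpl23a and its copies lay on the copies, against 25.9% to 31.5% in the other 5. For Rps26, also chosen after its values were seen, the copies held 11.9% in that library and 19.6% to 20.9% in the others, and for Rpl34 they held 16.9% against 8.44% to 9.95%. The part of this in the spread was not tested.

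The interaction, which is the knockdown effect in MT minus that in MB, was called for 1 member, higher (3.82% of tested genes, 5.49% at 10 CPM or more), and for 0 lower (6.63% and 7.8%). Its median was 0.20 over the members and 0.02 over all tested genes, with 69 of 83 above 0 (51.3% of tested genes, 53.1% at 10 CPM or more). Rpl22l1 was the member called, at 0.71 (SE 0.16, edgeR adjusted p = 0.0197, with a batch term). Rpl10 (0.57), Rpl6l (0.52) and Rps4x (0.49) had an adjusted p of 0.0703, 0.0694 and 0.127 in the same edgeR fit. Without a batch term edgeR called 0 members, with 1 higher (1.71% of tested genes) and 0 lower (3.3%) at an unadjusted p under 0.05, and DESeq2 called 0 (0.115% higher and 0.892% lower).

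**Figure D5:**
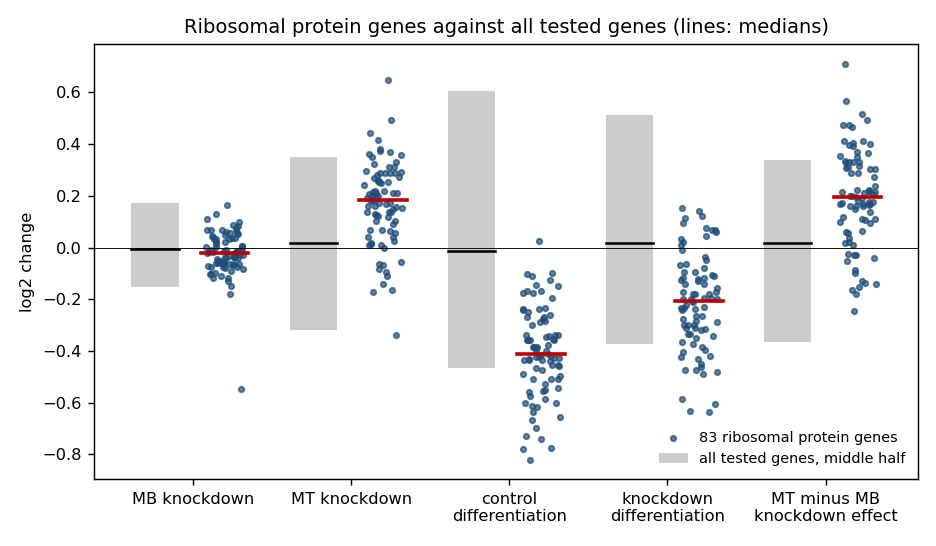
Log2 change of each of the 83 genes (points) with their median (red line), beside the middle 50% of all 16472 tested genes (grey bar) with its median (black line), for the 5 contrasts in the fit with a batch term. The red line is at -0.02 for MB knockdown, 0.18 for MT knockdown, -0.41 and -0.21 for differentiation of control and knockdown cells, and 0.20 for the difference of the knockdown effects.

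Several members have a paralog by name. Rpl22, the paralog of Rpl22l1, was at 313 and 353 in MB shCtrl, 336 and 320 in MB shKap1, 294 in MT shCtrl and 351 in MT shKap1. For both Rpl22 and Rpl22l1, MT shCtrl was below all the myoblast libraries and MT shKap1 lay within their range. The gap below the myoblasts was smaller for Rpl22. Its control change of -0.15 did not pass (edgeR adjusted p = 0.401), whereas Rpl22l1 changed by -0.61 (adjusted p = 0.00274). Rps27l, a p53-responsive paralog of Rps27, fell by 0.67 on the log2 scale in control cells (edgeR adjusted p = 0.00324), from 131 and 134 in MB shCtrl to 87.1 in MT shCtrl, while Rps27 did not. Rpl7l1, which acts in subunit assembly, was at 181 and 173 in MB shCtrl, 162 and 171 in MB shKap1, 140 in MT shCtrl and 111 in MT shKap1, and was lowest in MT shKap1. Rpl7 was at 1259 and 1205 in MB shCtrl, 1243 and 1046 in MB shKap1, 993 in MT shCtrl and 1214 in MT shKap1, and was lowest in MT shCtrl. The differences between paralogs were not tested.

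Reads of many members may be shared with near-identical copies. Of the 83 members, 56 have copies named as pseudogenes in the files, and for 15 the copies held over 10% of the combined counts. The 103 tested copies had a median of -0.37 in control differentiation, with 28 called lower (22.6% of tested genes) and 0 higher, and of 0.23 in MT knockdown, with 5 called higher (9.09%) and 0 lower. Their medians lay near those of the members, and the counting does not tell a copy's own transcripts from reads of its parent gene. The 4 members annotated as processed pseudogenes carried little of the total, since the 79 protein-coding members alone took 4.11% of counts in MT shCtrl and 4.95% to 5.86% in MB.

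Other parts of the same machinery were read from lists. In the same fit, the calls among all tested genes were 22.6% lower and 22.3% higher in control differentiation, 16.5% and 16.6% in knockdown differentiation, 11.2% and 9.09% in MT knockdown, 1.34% and 2.5% in MB knockdown and 6.63% and 3.82% in the interaction. Most genes of these lists were at 10 CPM or more. At that level the shares, in the same order, were 32% and 20.9%, 24.3% and 16.9%, 12.5% and 10.6%, 1.67% and 2.34%, and 7.8% and 5.49%. Rack1, a scaffold on the small subunit, fell in control cells (-0.39, edgeR adjusted p = 0.0414), and Fau, whose small subunit protein is made as a fusion with a ubiquitin-like protein, did not pass (-0.10). Among 20 tested genes whose messenger RNAs are known to carry a terminal oligopyrimidine tract, 13 were lower and 1 higher in control differentiation (median -0.51), 7 lower and 1 higher in knockdown differentiation (median -0.22), and 3 higher and 0 lower in MT knockdown (median 0.20). Those 3 were Vim (0.64), an intermediate filament gene, Eif3e (0.55), a subunit of an initiation factor, and Hnrnpa1 (0.55), a splicing factor, and the same 3 passed in the interaction (0.74, 0.60 and 0.65).

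Genes of ribosome assembly and RNA polymerase I were lower in both differentiation contrasts. Of 48 tested, 42 were lower in control differentiation (median -0.81) and 46 in knockdown differentiation (median -0.998), with 0 higher in either. In MT knockdown 17 were lower and 0 higher (median -0.36), beside 2 members higher and 0 lower (median 0.18). Tsr1 (-1.07) and Rrp12 (-1.32), both needed to mature the small subunit, and Nop2 (-0.86), a methyltransferase of large subunit RNA, had the smallest p (edgeR adjusted p = 0.000506, 0.00095 and 0.00172). In MB knockdown 0 were called either way, with a median of -0.19 and 46 of 48 below 0. The difference between this list and the members was not tested.

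Of the 76 tested genes of the mitochondrial ribosome, 39 were lower in control differentiation (median -0.38) and 24 in knockdown differentiation (median -0.24), with 0 higher in either. In MT knockdown 3 were higher and 1 lower (median 0.05). Among 20 tested regulators of growth, Myc, a transcription factor that activates ribosomal genes, was lower in control differentiation (-0.84, edgeR adjusted p = 0.000417), in knockdown differentiation (-1.37, adjusted p = 6.12e-05) and in MT knockdown (-0.61, adjusted p = 0.0102). Myc stood at 114 and 67.0 CPM in MB shCtrl, 116 and 61.6 in MB shKap1, 64.1 in MT shCtrl and 46.1 in MT shKap1. MT shCtrl was thus close to replicate 2 of MB shCtrl, and the size of the control change rests on replicate 1 and the batch term. Rptor, the subunit of mTOR complex 1 that binds substrates, was lower in MT knockdown (-1.12, edgeR adjusted p = 0.00118). Maf1, a repressor of RNA polymerase III, was higher there (0.56, adjusted p = 0.016 by the same test). In all, 3 regulators were higher and 7 lower in control differentiation, and 1 higher and 5 lower in MT knockdown.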

How the data were processed

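Groups came from the sample titles. The authors deposited whole-number read counts per gene, and the submitters' processing notes name TopHat2 2.0.11, HTSeq and mm9. On the annotation, the strand setting and the treatment of reads with several hits the sources used here give nothing. HTSeq's summary line for reads with several hits was 0 in all 6 libraries. Whether such reads were removed beforehand or counted is not known. HTSeq's summary lines (5.18% to 8.07% outside genes) were dropped. Symbols came from GENCODE (GRCm38) by gene identifier.

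All 6 libraries entered 1 edgeR 4.0.16 fit (R 4.3.3; robust quasi-likelihood, TMM, filterByExpr by group) with 4 group means and 5 contrasts, and p-values were adjusted by Benjamini-Hochberg over 16472 tested genes (threshold 0.05). The primary fit has no batch term (2 residual degrees of freedom, biological coefficient of variation 32.9%). The second adds it (1 residual degree of freedom, 9.74%), and a change said to have passed, risen or fallen passed in the second. The scripts were tested on simulated data. Alternatives were other scalings, no filter, DESeq2 1.42.0, batch 1 alone and leaving out each MB library.

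The members, the gene lists and the tests were chosen with earlier results of these data known. Named members are the 3 above and the matching symbols below the level threshold, up to 8 each way with the largest change among those called with the batch term (4 for knockdown differentiation and the interaction), or else the 3 with the smallest p, the stalk proteins, Rpsa, Rps6, Rps27a, paralogs by name, the 3 highest and lowest per length, and up to 4 genes per list and contrast with the smallest p. The values of 1 member and 1 listed gene are not reported here by name.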

Additional observations from a re-analysis of the deposited data

Results flagged for a closer look

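Rpl22l1 was the one ribosomal protein gene whose knockdown effect differed between stages by the test of the difference itself. The MT knockdown effect exceeded the MB knockdown effect by 0.711 on the log2 scale (edgeR adjusted p = 0.0197, with a batch term). The value rests on 1 MT library of each genotype, and without a batch term the difference was 0.71 with an adjusted p of 0.988. Groups of 1 or 2 libraries are too small to look for single outlying libraries.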

How the results depend on the processing

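The calls depended on the batch term. With the replicate block (batch term) edgeR called 46 members in control differentiation, 14 in knockdown differentiation, 2 in MT knockdown and 1 in the interaction, where the fit without it called 0 in each, and the median in control differentiation moved from -0.32 to -0.41. The block with library size scaling called 51, 7, 12 and 3 in that order, where 23.7%, 12.9%, 14.1% and 5.58% of tested genes were called in the same direction, and the block with DESeq2 size factors 35, 14, 1 and 1 (20.7%, 16.3%, 7.43% and 3.06%), with control medians of -0.44 and -0.38. DESeq2 without the block called 9 and 1 in the differentiation contrasts. Upper quartile scaling gave a control median of -0.28, and library size scaling an MT knockdown median of 0.32, with or without the block. Of 137 summary values under alternatives, 117 stayed the same. For a median or share this meant a shift smaller than the standard deviation between myoblast replicates, and for calls an equal number. The other values were 14 with more members called and 6 medians or shares that moved further. Of 403 values for named members, 347 kept their direction and side of the threshold, and 6 reversed.

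The reversals in MB knockdown rested on the MB shKap1 libraries. Leaving out replicate 1 or replicate 2 of MB shKap1 gave -0.0606 or 0.28 for Rpl31, -0.50 or 0.13 for Rpl34 and -0.24 or 0.0140 for Rpl7, and for Rpl28 in the interaction 0.0400 or -0.39. Rpl34 was 0.0409 in batch 1 alone, and Rps27 in control differentiation was -0.00144 with the block and library size scaling. The cause was not tested. Leaving out each MB library in turn, the member median ran from -0.11 to 0.08 in MB knockdown, from -0.34 to -0.30 in control differentiation, from -0.25 to -0.03 in knockdown differentiation, from 0.17 to 0.18 in MT knockdown and from 0.09 to 0.30 in the interaction, with 0 calls. These fits have no batch term, since with it they leave no residual degrees of freedom.

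Whether the replicate numbers pair the samples is not stated in the labels. The difference of replicate 2 from replicate 1 correlated between the MB groups at r = 0.762 over 16472 genes, which are not independent replicates. Each MT group is 1 library, so no MT value has a replicate of its own. Reads shared with near-identical copies limit 15 members with over 10% of reads on them. Relative counting error is largest for Rps12l1, the member with the lowest mean (14.1 CPM).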
